A study of Caenorhabditis elegans with 28 samples.

Results

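Wild-type *Caenorhabditis elegans* larvae were compared between 25 to 28 h and 18 to 21 h after plating on food, which is the same stretch of the larval cycle 7 h apart. The comparison used 8 of the 28 mRNA libraries of a time course, 4 in each window, chosen by genotype and hour. The windows and gene lists were set with earlier results of these data known. The 25 h library was set against 18 h, 26 h against 19 h, 27 h against 20 h and 28 h against 21 h. All 8 libraries came from untreated animals of strain N2, hatched without food, plated together as arrested L1 larvae and kept at 25°C. A second culture, strain HW3527 carrying the *ebax-1(tm2321)* deletion on chromosome IV and grown in the same way, served to look at the same genes at 28 to 31 h against 21 to 24 h. The labels give hours and not larval stages, and whole animals were used, so no cell type was selected.

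Larvae of *C. elegans* pass through a repeated cycle in which many mRNAs rise and fall with each molt. Beside that rhythm runs a slower programme that does not repeat: growth of the germ line, the switch of germ cells into meiosis and sperm formation, the heterochronic genes that tell one larval stage from the next, and the building of stage-specific structures such as the vulva. The question addressed here was which mRNAs differed between one cycle and the next at a like position in the cycle.

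The 8 libraries held 5120921 to 8444858 counts, so that a level of 1 CPM (counts scaled to a library of 1000000) stood for 5 to 8 reads. Each hour was a single library from a single culture. The p-values below therefore measure the scatter of the difference over 4 pairs of hours, not over separate cultures, and whatever else changed between the windows in that culture cannot be told apart from age. The pairing by position held best at the start of the window. Across 10314 genes with at least 5 CPM, centred on their wild-type mean, the correlation was 0.797 between 25 h and 18 h, 0.601 between 26 h and 19 h, 0.432 between 27 h and 20 h, and 0.136 between 28 h and 21 h. Interpolated earlier libraries fitted best 7.0 h before 25 h (the longest lag the data allow for that hour), 6.8 h before 26 h, 7.2 h before 27 h and 7.8 h before 28 h. These correlations are descriptions over genes, which are not independent replicates. Differences of position in the cycle therefore cannot be told apart from differences of age, least of all in the last pair.

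Of 12086 genes tested, 884 (7.31%) differed between the windows at an adjusted p under 0.01 (edgeR quasi-likelihood test with the pair of hours as a block). At 25 to 28 h 539 were higher (4.46%) and 345 lower (2.85%). The rises were larger than the falls: the median log2 difference was 1.01 among genes that rose and -0.69 among genes that fell, against -0.007 over all genes tested. At least a 2-fold rise was fitted for 276 genes (2.28%) and a 2-fold fall for 67 (0.554%). All 884 moved in the same direction in 4 of 4 pairs. The test used these same pairs, so this is a description and no further support. The 4 later libraries lay wholly above the 4 earlier ones for 472 of the 539 genes that rose (9.93% over all genes tested) and wholly below for 232 of the 345 that fell (7.7% over all genes tested). With only 4 pairs the number of calls depended on each of them. Without the pair at 25 h and 18 h 294 genes rose and 63 fell, without 26 h and 19 h 183 and 44, without 27 h and 20 h 86 and 9, and without 28 h and 21 h 450 and 337. Of 105 named genes that passed the test, 31 did so whichever pair was left out.

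**Figure D1:**
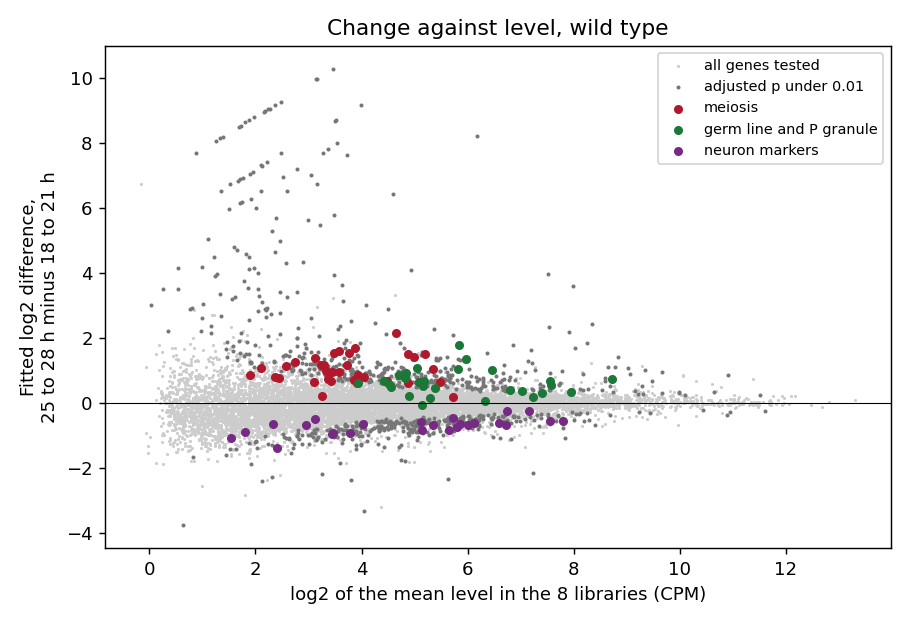
Fitted log2 difference (25 to 28 h minus 18 to 21 h, y axis) against the log2 of the mean level over the 8 wild-type libraries (CPM, x axis), 1 point per gene tested. Dark grey points passed the test, and coloured points are the members of 3 lists: the 35 meiosis genes all lie above 0 and the 25 neuron markers all below it. Points above 6 on the y axis were at or near 0 counts at 18 to 21 h, where the fitted value is no measure of size.

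Germline genes rose. P granules are RNA and protein condensates that mark germ cells, and 16 of 28 genes of the germ line, its P granules and its stem cells that were tested were higher at 25 to 28 h and none (0) lower, with a median log2 difference of 0.58. The summed level of the list was 2643 to 3047 CPM at 25 to 28 h and 1774 to 2164 CPM at 18 to 21 h. In whole animals, more germ cells and more mRNA per germ cell cannot be told apart, and the same holds for every tissue below. *pgl-3* (WBGene00003994; WBcel235 chromosome V, 4755979 to 4758587, plus strand), which encodes a P granule scaffold protein, stood at 70.0, 81.9, 99.3 and 104 CPM at 25 to 28 h, against 18.7, 28.4, 24.7 and 31.7 CPM at 18 to 21 h. The lowest later library was more than 2-fold above the highest earlier one, and the fitted difference was 1.79 log2 (SE 0.097, adjusted p = 0.000144). *glh-4*, a Vasa-related RNA helicase of P granules, had 75.2, 85.9, 98.7 and 101 CPM at 25 to 28 h, against 32.6, 36.9, 38.6 and 33.3 CPM at 18 to 21 h (log2 difference 1.35, adjusted p = 0.000251). *gld-3*, a partner of a cytoplasmic poly(A) polymerase, averaged 44.9 CPM at 25 to 28 h and 21.2 CPM at 18 to 21 h (1.08 log2). The P granule gene *deps-1* averaged 76.1 CPM at 25 to 28 h and 37.0 CPM at 18 to 21 h (1.05 log2). The windows did not overlap for any of these 4 genes, and all 4 passed the test whichever pair was left out. The count for the list was less stable: it was 7 without the pair at 25 h and 18 h, 7 without 26 h and 19 h, 7 without 27 h and 20 h, and 15 without 28 h and 21 h, and 10 when the pairs were set 8 h apart.

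Genes of meiotic chromosome pairing, synapsis and recombination rose. Of 35 tested, 22 were higher at 25 to 28 h and 0 lower, all 35 had a fitted difference above 0, and the median was 0.94 log2. The summed level was 703 to 890 CPM at 25 to 28 h and 331 to 498 CPM at 18 to 21 h. *him-3* (WBGene00001862; WBcel235 chromosome IV, 6977508 to 6978765, plus strand), a HORMA-domain protein of the meiotic chromosome axis, had 33.4, 40.4, 42.7 and 46.0 CPM at 25 to 28 h, against 6.67, 5.02, 10.8 and 15.1 CPM at 18 to 21 h. It was higher in every pair, by 2.15 log2 (SE 0.202, adjusted p = 0.00112). Its paralogue *htp-2* averaged 22.3 CPM at 25 to 28 h and 7.11 CPM at 18 to 21 h (1.67 log2). *prom-1*, an F-box gene needed for timely meiotic entry and homologue pairing, averaged 17.7 CPM at 25 to 28 h and 6.09 CPM at 18 to 21 h (1.60 log2), and *dsb-1*, required for meiotic double-strand breaks, 20.1 CPM at 25 to 28 h and 6.92 CPM at 18 to 21 h (1.54 log2). None of these 4 genes had overlapping windows. Only *dsb-1* among them passed the test whichever pair was left out, and the count for the list was 6, 7, 4 and 20 without the pairs that begin at 18, 19, 20 and 21 h.

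Argonautes of the small RNA pathways, some of which guard the germ line against foreign and repeated sequence, followed the same direction. Of 15 tested, 6 were higher and 0 lower, with a median of 0.61 log2. The 6 include *wago-10*, which is set apart below. *prg-1*, the Piwi protein that binds piRNAs, had 348, 375, 380 and 391 CPM at 25 to 28 h, against 176, 181, 223 and 240 CPM at 18 to 21 h (0.88 log2, adjusted p = 0.000854). *csr-1* averaged 246 CPM at 25 to 28 h and 131 CPM at 18 to 21 h (0.91 log2), and *wago-1* 205 CPM at 25 to 28 h and 102 CPM at 18 to 21 h (1.0 log2). The windows were apart for all 3 genes, and each passed the test with any pair left out. *wago-10* was of another kind: it held 6.25, 21.5, 29.1 and 49.1 CPM at 25 to 28 h, while its 4 earlier libraries held 3 counts between them. The ratio of the windows was 241, with a 95% exact interval of 82.2 to 1170 that covers counting error only. It passed the filter on low counts only through its later libraries. Its call is therefore no support for the list, although the 6 include it.

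**Figure D2:**
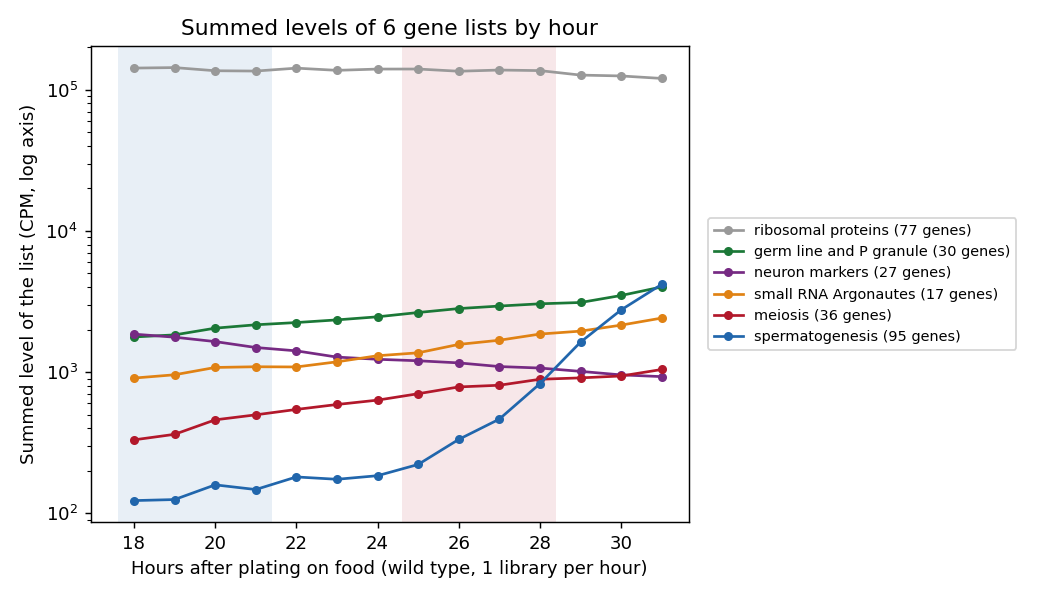
Summed level of 6 gene lists (CPM, log axis) in the 14 wild-type libraries, 18 to 31 h after plating, 1 point per library. Shading marks 25 to 28 h (red) and 18 to 21 h (blue). The meiosis list stood at 703 to 890 CPM in the red window and at 331 to 498 CPM in the blue one, the neuron markers at 1069 to 1203 CPM in the red window and 1494 to 1858 CPM in the blue one, and the spermatogenesis list climbed from 25 h onward.

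Transcripts of sperm formation appeared within the later window. Hermaphrodites make sperm before oocytes, and major sperm proteins are the motility proteins that fill the mature sperm. The 30 *msp* genes together had 2.9, 21.1, 54.5 and 149.8 CPM at 25, 26, 27 and 28 h, against 0.0, 0.2, 0.8 and 0.5 CPM at 18, 19, 20 and 21 h. In the later window each hour lay above the one before. The wider spermatogenesis list of 95 genes had 222 to 828 CPM at 25 to 28 h and 123 to 159 CPM at 18 to 21 h. Only 16 of the 95 passed the filter on low counts, and since a gene near 0 in the earlier window could pass only through the later one, the 8 of them that were higher (0 lower) are given as a count alone. Without a filter 52 of 92 were higher, and 14 of 32, 5 of 16, 3 of 15 and 8 of 16 were higher without the pairs that begin at 18, 19, 20 and 21 h.

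*spe-44*, a transcription factor that directs sperm gene expression, was present early and rose steadily through the later window. It had 11.1, 20.8, 23.2 and 37.3 CPM at 25 to 28 h, against 1.61, 1.54, 2.42 and 1.27 CPM at 18 to 21 h (3.62 log2, SE 0.281, adjusted p = 0.000568). *fer-1*, a ferlin needed for membrane fusion in maturing sperm, had 8.41, 20.1, 24.4 and 35.1 CPM at 25 to 28 h and at most 0.772 CPM at 18 to 21 h (5.79 log2). *spe-18* and *spe-46*, both named for sperm defects of their mutants, averaged 18.2 CPM and 5.84 CPM at 25 to 28 h, against 0.403 CPM for *spe-18* and 0.179 CPM for *spe-46* at 18 to 21 h. Of these 4 genes *fer-1*, *spe-18* and *spe-46* passed the filter on low counts only through their later libraries. Their calls are therefore no support for the list, although the 8 genes counted as higher include them. The fitted value of *fer-1* is no measure of size. *spe-44* passed the test with any pair left out.

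The 15 largest fitted rises among genes of at least 10 CPM were nearly all of this on-switch kind, with 0 to 3 counts over the 4 earlier libraries. Their fitted values are no measure of size, so each is given as a bound or with its interval. *ant-1.4*, which encodes an adenine nucleotide carrier of mitochondria, had 9.05, 17.2, 24.0 and 37.9 CPM at 25 to 28 h and no read (0) at 18 to 21 h, which makes it at least 202-fold higher, against a floor of 3 counts summed over the 4 earlier libraries. On the same footing F37A4.5 was at least 164-fold higher, B0205.10 at least 162-fold, *cbs-2* (a cystathionine beta-synthase) at least 101-fold and ZK1010.5 at least 93.4-fold. *ant-1.3*, whose sequence is close to that of *ant-1.4*, had 672 counts in the later libraries and 1 in the earlier ones, a ratio of 621 (95% exact interval 111 to 24600). T10E9.4 had 942 counts at 25 to 28 h and 1 at 18 to 21 h (ratio 871, interval 156 to 34400), and Y113G7C.1 had 679 counts at 25 to 28 h and 1 at 18 to 21 h (ratio 628, interval 112 to 24800). No source states how reads shared by such close copies were assigned, and the split between them is uncertain. *sams-5*, an S-adenosylmethionine synthetase, had 612 counts at 25 to 28 h and 2 at 18 to 21 h (ratio 283, interval 78.0 to 2340), and *gipc-1* 568 counts at 25 to 28 h and 2 at 18 to 21 h (ratio 263, interval 72.4 to 2170). The ratio was 317 for B0393.4 (interval 87.5 to 2620), 304 for *nsph-3.1* (interval 54.2 to 12100) and 187 for *moa-1* (interval 51.4 to 1550).

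The exception in this group was Y47G6A.15. It reached 4.72, 59.7, 133 and 380 CPM at 25, 26, 27 and 28 h, against 0.371, 0.193, 0.242 and 0.956 CPM at 18 to 21 h. It too passed the filter on low counts only through its later libraries, so its fitted difference of 8.20 log2 is no measure of size. It went on to a mean of 1479 CPM at 29 to 31 h. In all, 47 of the 539 genes that rose had at most 3 counts in the earlier window, and 18 had 0. Placing those 18 at their bound left the median of the genes that rose at 1.01 log2.

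Of 18 genes of oogenesis, yolk and eggshell, 3 rose and 1 fell, 16 had fitted differences above 0, and the median was 0.59 log2. The number that rose was 4, 1, 0 and 3 without the pairs that begin at 18, 19, 20 and 21 h. The summed level of the list, which includes the fall of *lin-41*, was 1087 to 1249 CPM at 25 to 28 h and 1127 to 1232 CPM at 18 to 21 h. The genes that rose were *oma-1*, a regulator of oocyte maturation (19.5 CPM at 25 to 28 h and 7.81 CPM at 18 to 21 h, 1.32 log2), and the eggshell genes *cbd-1* (53.2 CPM at 25 to 28 h and 29.4 CPM at 18 to 21 h, 0.86 log2) and *chs-1*, a chitin synthase (21.3 CPM at 25 to 28 h and 11.7 CPM at 18 to 21 h, 0.86 log2). The gene that fell was *lin-41*, which is also a heterochronic gene and is described below. Among 43 genes of DNA replication and cell cycle, 1 rose and 1 fell (2.3% each way, against 4.46% higher and 2.85% lower over all genes tested). *cyb-1*, a mitotic and meiotic cyclin B, had 58.0, 56.3, 65.8 and 75.4 CPM at 25 to 28 h, against 28.8, 32.6, 36.3 and 47.0 CPM at 18 to 21 h (0.83 log2, adjusted p = 0.00136). *rnr-2*, the small subunit of ribonucleotide reductase, averaged 48.4 CPM at 25 to 28 h and 73.3 CPM at 18 to 21 h (-0.60 log2), with overlapping windows.

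Neuronal genes fell. Of 25 synaptic, transmitter and touch neuron markers tested, 17 were lower at 25 to 28 h and 0 higher, all 25 had a fitted difference below 0, and the median was -0.68 log2 (-0.65 to -0.81 under the other settings). Their summed level was 1069 to 1203 CPM at 25 to 28 h and 1494 to 1858 CPM at 18 to 21 h. CPM are shares of a library, the germline lists rose over the same hours, and the part of those rises in the falls was not tested. *unc-17* and *cha-1*, the vesicular acetylcholine transporter and choline acetyltransferase encoded at a shared locus, fell together. *unc-17* had 11.1, 8.55, 9.35 and 8.35 CPM at 25 to 28 h, against 21.0, 18.5, 17.4 and 15.1 CPM at 18 to 21 h (-0.94 log2, SE 0.112, adjusted p = 0.00246). *cha-1* averaged 7.65 CPM at 25 to 28 h and 14.4 CPM at 18 to 21 h (-0.92 log2). *cat-2*, the tyrosine hydroxylase of dopamine neurons, had 4.08, 2.62, 2.78 and 2.12 CPM at 25 to 28 h, against 10.3, 8.30, 7.26 and 5.26 CPM at 18 to 21 h (-1.41 log2), and the synaptic vesicle gene *sng-1* averaged 7.35 CPM at 25 to 28 h and 14.5 CPM at 18 to 21 h (-0.98 log2). The windows were apart for all 4 genes. The list's count was 5, 5, 1 and 17 without the pairs that begin at 18, 19, 20 and 21 h.

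Neuropeptide genes fell less uniformly. Of 81 *flp* and *nlp* genes tested, 14 were lower and 1 higher, with a median of -0.47 log2. *flp-15* averaged 8.78 CPM at 25 to 28 h and 15.6 CPM at 18 to 21 h (-0.82 log2), *flp-17* 15.5 CPM at 25 to 28 h and 26.0 CPM at 18 to 21 h (-0.73 log2), and *nlp-15* 11.4 CPM at 25 to 28 h and 18.6 CPM at 18 to 21 h (-0.70 log2). *flp-10* passed the test as higher, a call that was lost without any 1 of the 4 pairs and with pairs 8 h apart, with 17.1, 23.0, 23.1 and 21.8 CPM at 25 to 28 h, against 11.2, 14.9, 13.8 and 9.40 CPM at 18 to 21 h (0.79 log2, adjusted p = 0.00768). The calls of *flp-15* and *flp-17* were likewise lost without any 1 of the 4 pairs. That of *nlp-15* was lost without the pair that begins at 18, 19 or 20 h and with pairs 8 h apart. The number of neuropeptide genes lower was 1, 0, 0 and 4 without the pairs that begin at 18, 19, 20 and 21 h. *daf-7*, the TGF-beta ligand that sensory neurons release in the dauer pathway, had 10.7, 13.5, 10.5 and 11.5 CPM at 25 to 28 h, against 34.1, 28.4, 25.8 and 23.7 CPM at 18 to 21 h (-1.28 log2, SE 0.129, adjusted p = 0.00144). Its windows were well apart.

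Heterochronic genes, which assign cells their larval stage, included *lin-41*, the largest named fall whose windows did not overlap. *lin-41* (WBGene00003026; WBcel235 chromosome I, 9334800 to 9342496, minus strand) encodes a TRIM-NHL RNA-binding protein and is a well-known target of the *let-7* miRNA. It had 57.2, 61.0, 51.7 and 47.2 CPM at 25 to 28 h, against 262, 252, 265 and 200 CPM at 18 to 21 h. The pair differences ran from -2.35 to -2.04 log2, the fitted difference was -2.17 log2 (SE 0.073, adjusted p = 0.000114), and the mean of 22 to 24 h, 84.0 CPM, lay between the windows. *daf-12*, the nuclear receptor for dafachronic acids, had 73.9, 73.0, 71.5 and 69.0 CPM at 25 to 28 h, against 146, 157, 169 and 150 CPM at 18 to 21 h (-1.11 log2, SE 0.068, adjusted p = 0.000238). Both genes varied little within each window compared with the step between them, and both passed the test with any pair left out.

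Other heterochronic genes moved against a background of hourly change. *lin-46*, which acts downstream of *lin-28*, had 12.7, 6.90, 7.58 and 4.38 CPM at 25 to 28 h, against 25.8, 18.3, 15.2 and 8.93 CPM at 18 to 21 h (-1.11 log2, adjusted p = 0.00235). *lin-14* averaged 47.4 CPM at 25 to 28 h and 67.3 CPM at 18 to 21 h (-0.50 log2, adjusted p = 0.00499). *mab-10*, a cofactor of the LIN-29 transcription factor, had 15.2, 48.7, 64.9 and 109 CPM at 25 to 28 h, against 4.33, 10.4, 34.7 and 60.1 CPM at 18 to 21 h, and was the only member of the list higher by the test (1.30 log2, adjusted p = 0.00958), a call that was lost without the pair that begins at 18, 19 or 20 h and with pairs 8 h apart. The windows of these 3 genes overlapped, and each changed from hour to hour within them. In all 4 of 16 members fell and 1 rose, and the number that fell was 2 without the pair that begins at 18, 19 or 20 h. Of the members that did not pass the test, *lin-28* averaged 18.3 CPM at 25 to 28 h and 15.5 CPM at 18 to 21 h (0.25 log2, adjusted p = 0.163), *hbl-1* 24.6 CPM at 25 to 28 h and 36.7 CPM at 18 to 21 h (-0.57 log2, adjusted p = 0.0461), and *lin-29* 55.6 CPM at 25 to 28 h and 49.4 CPM at 18 to 21 h (0.52 log2, adjusted p = 0.319).

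**Figure D3:**
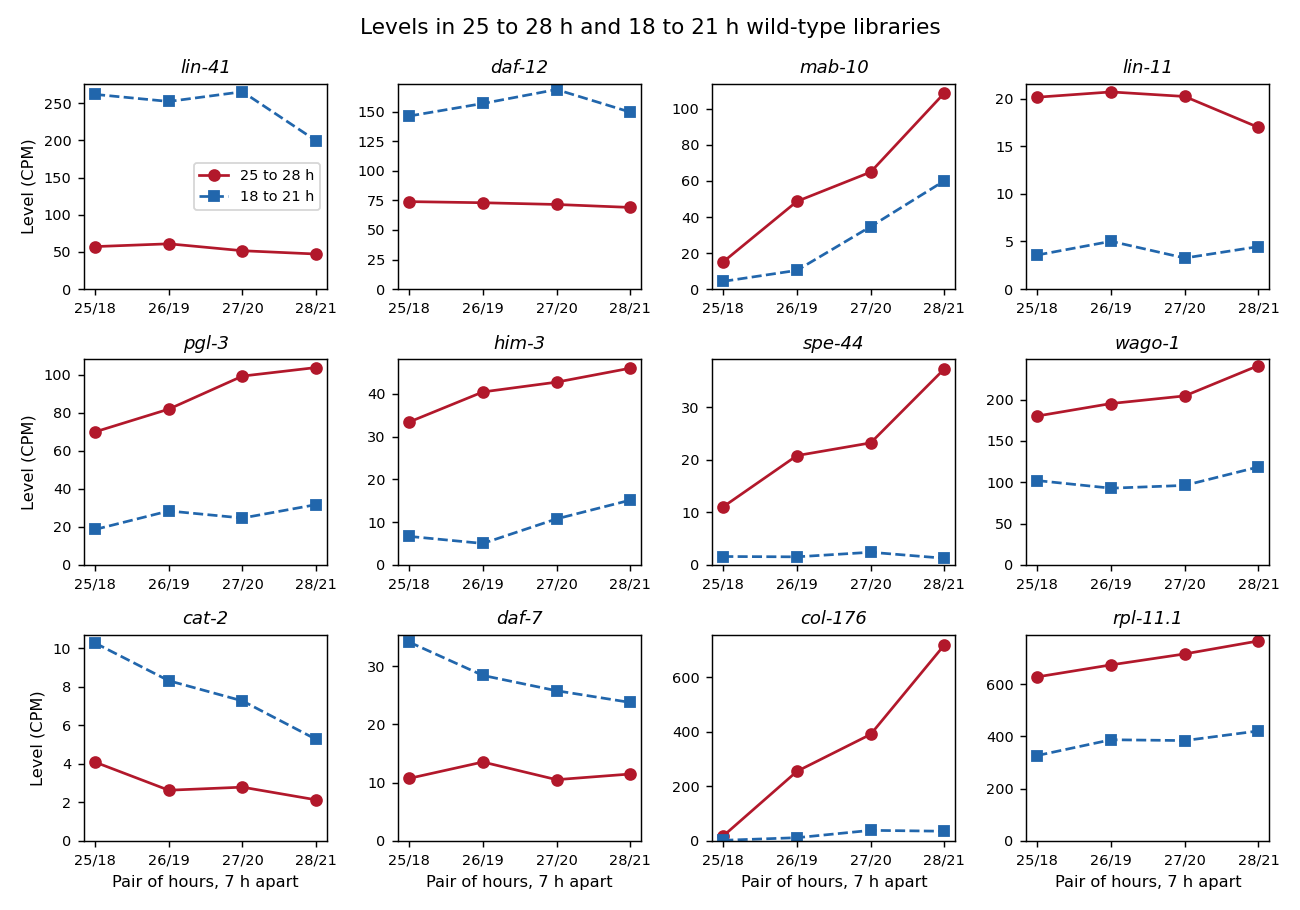
Levels (CPM, y axes from 0) of 12 genes in the 4 pairs of wild-type hours, 25 to 28 h as red circles and 18 to 21 h as blue squares, 1 library per point. *lin-41* and *daf-12* lie lower at 25 to 28 h in every pair without overlap, *pgl-3*, *him-3*, *spe-44* and *wago-1* lie higher, and *mab-10* and *col-176* lie higher in each pair although their windows overlap.

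Among genes of vulval induction and the Hox cluster, 2 of 23 rose and 2 fell (8.7% each way). Over all genes tested 4.46% rose and 2.85% fell. *lin-11*, a LIM homeodomain gene of the vulval and uterine lineages, had 20.1, 20.7, 20.2 and 17.0 CPM at 25 to 28 h, against 3.58, 5.02, 3.27 and 4.46 CPM at 18 to 21 h (2.28 log2, SE 0.165, adjusted p = 0.000444). The windows were far apart and the gene was nearly flat in each. The cadherin gene *cdh-3* averaged 35.0 CPM at 25 to 28 h and 21.8 CPM at 18 to 21 h (0.68 log2). *lin-1*, an ETS factor downstream of Ras signalling, had 34.4, 38.1, 30.4 and 30.1 CPM at 25 to 28 h, against 53.3, 53.9, 41.5 and 51.5 CPM at 18 to 21 h (-0.59 log2), and *nhr-67*, a Tailless-type nuclear receptor, averaged 2.45 CPM at 25 to 28 h and 5.61 CPM at 18 to 21 h (-1.18 log2). Of 12 genes of seam and epidermal identity 2 fell: the GATA factor gene *egl-18* (17.5 CPM at 25 to 28 h and 28.4 CPM at 18 to 21 h, -0.67 log2) and *lin-26*, a zinc finger gene of epidermal fate (65.3 CPM at 25 to 28 h and 92.1 CPM at 18 to 21 h, -0.50 log2). The number of these that fell was 0, 1, 0 and 1 without the pairs that begin at 18, 19, 20 and 21 h, and 0 with pairs 8 h apart, where 1 other rose. In the vulval and Hox list it was 0, 0, 0 and 1, and the number that rose 1, 1, 1 and 2. Of 175 nuclear hormone receptor genes, 5 fell (2.9%, against 2.85% over all genes tested) and 0 rose. Without those pairs 0, 1, 0 and 4 fell.

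Of 9 transcription factor genes linked to the larval rhythm, 0 passed the test with edgeR and 0 with limma, but 2 were lower with DESeq2 and 1 with pairs 8 h apart. Without adjustment 5 of the 9 were lower at p under 0.05, and 8 had fitted differences below 0. Over all genes tested, 4399 of 12086 had an unadjusted p under 0.05 with edgeR, in either direction. *nhr-23* averaged 93.6 CPM at 25 to 28 h and 89.2 CPM at 18 to 21 h (0.08 log2, adjusted p = 0.567), and *myrf-1* 313 CPM at 25 to 28 h and 375 CPM at 18 to 21 h (-0.18 log2, adjusted p = 0.370). The larger values, -1.18 log2 for *grh-1* (adjusted p = 0.0165) and -0.95 log2 for *lin-42* (adjusted p = 0.0368), came with wide gaps in the last pair, where *lin-42* had 183 CPM at 28 h and 622 CPM at 21 h. That is also the pair with the lowest correlation of the 4. Of 27 molting and apical matrix genes, 0 passed with edgeR and 0 with limma, and 1 was lower with DESeq2. Without adjustment 3 were lower and 1 higher at p under 0.05. The median was -0.29 log2, and 0.06 log2 with pairs 8 h apart. The mean levels of these genes across pairs swung at least 2-fold between hours in 24 of 27 cases, and those of all genes tested did so in 2337 of 12086 cases.

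Cuticle collagens, the structural proteins renewed at every molt, rose in part: 18 of 102 tested were higher and 0 lower, with a median of 0.31 log2. *col-176* had 17.7, 255, 390 and 718 CPM at 25 to 28 h, against 1.61, 11.2, 38.1 and 34.9 CPM at 18 to 21 h (3.97 log2, SE 0.212, adjusted p = 0.000144). *col-133* had 887, 552, 312 and 83.7 CPM at 25 to 28 h, against 101, 72.2, 18.5 and 1.75 CPM at 18 to 21 h (3.60 log2, SE 0.314, adjusted p = 0.000854). *col-176* climbed from hour to hour in the later window and *col-133* fell, and each lay higher than in the earlier cycle. *col-145* averaged 535 CPM at 25 to 28 h and 115 CPM at 18 to 21 h (2.41 log2), and *col-162* 293 CPM at 25 to 28 h and 77.1 CPM at 18 to 21 h (2.32 log2). The windows overlapped for all 4 genes. The mean levels across pairs swung at least 2-fold between hours for 94 of the 102 collagens (median swing 3.23 log2, against 0.42 log2 over all genes tested). Collagen genes are similar in sequence, so individual values carry that uncertainty. With pairs 8 h apart the median turned to -0.1 log2, with 5 collagens higher and 1 lower. In the rest of the cycle, 29 to 31 h against 22 to 24 h, it was -0.15 log2, with 29 of 115 higher and 6 lower. The count in the window was 0 without the pairing, and 4, 10, 6 and 20 without the pairs that begin at 18, 19, 20 and 21 h. *col-176* and *col-145* passed the test with any pair left out.

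Muscle, intestine and ribosome lists stayed near their earlier levels in sum. Body wall muscle genes summed to 27957 to 30181 CPM at 25 to 28 h and 26910 to 29276 CPM at 18 to 21 h. Of 21 tested, 1 rose and 1 fell (4.8% each way, against 4.46% higher and 2.85% lower over all genes tested). *act-4*, an actin, rose by a small amount (3191 CPM at 25 to 28 h and 2688 CPM at 18 to 21 h, 0.25 log2), and *tni-1*, a troponin I, fell (241 CPM at 25 to 28 h and 310 CPM at 18 to 21 h, -0.36 log2). Intestinal genes summed to 17667 to 19363 CPM at 25 to 28 h and 16895 to 17898 CPM at 18 to 21 h. Of 25 tested, 1 was higher and 1 lower (4.0% each way). Neither of the muscle genes passed without the pair that begins at 18, 19 or 20 h. Ribosomal protein genes summed to 135286 to 140238 CPM at 25 to 28 h and 135663 to 143575 CPM at 18 to 21 h, with a median of -0.01 log2.

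Within the ribosomal list a pair of paralogues moved in opposite directions. *rpl-11.1* had 628, 674, 716 and 766 CPM at 25 to 28 h, against 327, 387, 384 and 421 CPM at 18 to 21 h (0.88 log2, SE 0.050, adjusted p = 0.000175). *rpl-11.2* averaged 1778 CPM at 25 to 28 h and 2174 CPM at 18 to 21 h (-0.29 log2, SE 0.035, adjusted p = 0.00265). Both encode ribosomal protein L11, and no source states how reads that fit either copy were assigned. In the proteasome list 1 of 33 genes rose (3.0%, against 4.46% over all genes tested). It was *rpn-6.2*, a paralogue of a lid subunit. This gene had 13.8, 20.1, 25.3 and 36.8 CPM at 25 to 28 h, against 3.34, 2.51, 4.59 and 5.74 CPM at 18 to 21 h (2.52 log2). Both *rpl-11.1* and *rpn-6.2* passed the test with any pair left out.

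**Figure D4:**
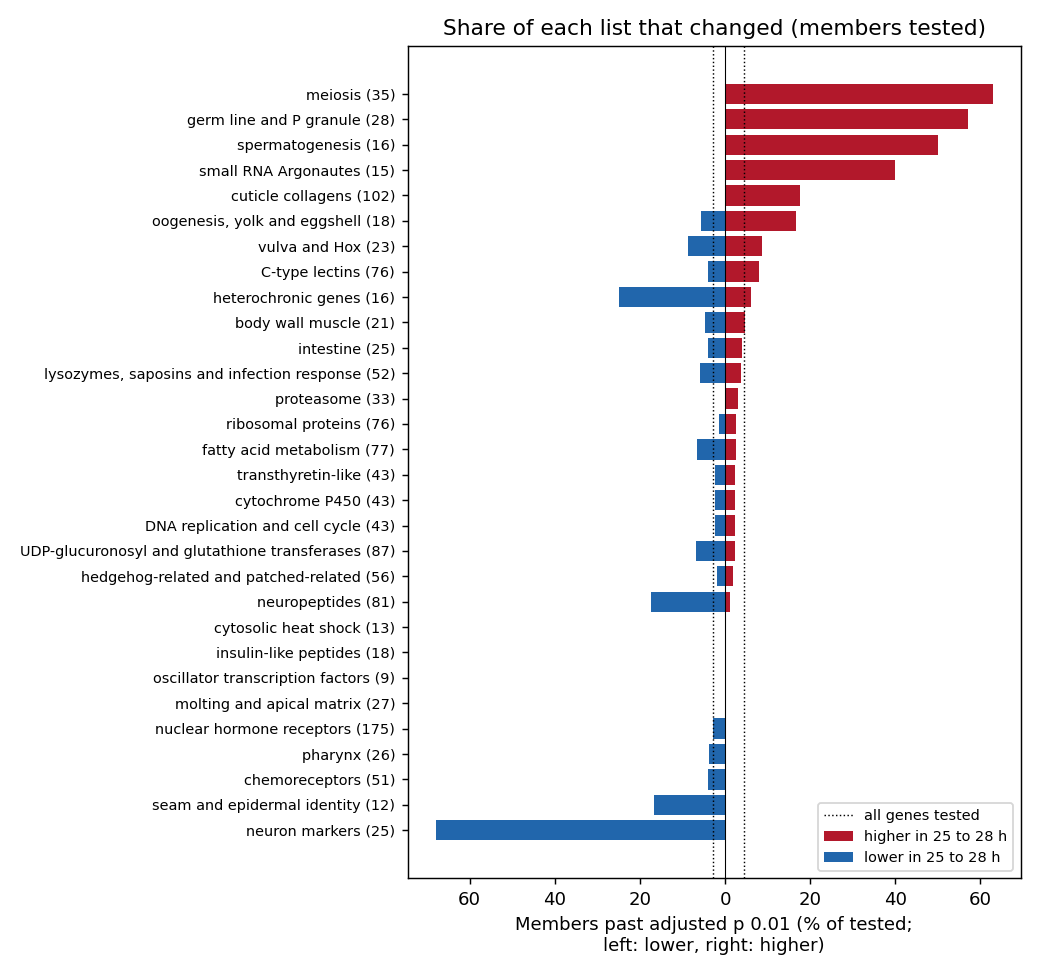
Share of the tested members of 30 gene lists that passed an adjusted p of 0.01 (x axis, %), higher at 25 to 28 h to the right in red and lower to the left in blue. Dotted lines mark the shares over all genes tested, 4.46% higher and 2.85% lower. The number tested stands after each name. The meiosis list reaches 62.9% higher and the neuron markers 68.0% lower. Spermatogenesis, Argonaute, C-type lectin and fatty acid bars include genes that passed the filter on low counts only through 25 to 28 h.

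The largest falls included genes of defence, chemoreception and metabolism. *cnc-4*, a caenacin antimicrobial peptide gene, had 3.31, 2.62, 2.91 and 1.27 CPM at 25 to 28 h, against 59.2, 46.5, 14 and 1.91 CPM at 18 to 21 h (-3.34 log2, SE 0.446, adjusted p = 0.00371). Its peak at 18 and 19 h had no counterpart 7 h later. *srlf-34*, from a chemoreceptor-like family, had 7.90, 21.0, 21.7 and 7.64 CPM at 25 to 28 h, against 96.8, 166, 58.7 and 16.7 CPM at 18 to 21 h (-2.36 log2). *adh-1*, an alcohol dehydrogenase, averaged 12.5 CPM at 25 to 28 h and 44.2 CPM at 18 to 21 h (-1.81 log2) with no overlap. *irg-1*, an infection response gene, averaged 8.62 CPM at 25 to 28 h and 23.3 CPM at 18 to 21 h (-1.30 log2, adjusted p = 0.00799). The calls of *cnc-4* and *srlf-34* were lost without the pair that begins at 18, 19 or 20 h, and that of *cnc-4* also with limma. The *irg-1* call was lost without the pair that begins at 19 or 20 h, with limma and with pairs 8 h apart. The *adh-1* call was lost without the pair that begins at 20 h. Among the 15 largest falls the windows stayed apart for 4: *lin-41*, *adh-1*, T22F7.4 and *daf-7*.

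The mean of 22 to 24 h, which the test did not use, lay between the windows for 455 of the 539 genes that rose (84.4%), for 242 of the 345 that fell (70.1%) and for 33.9% of all genes tested. Genes with windows well apart leave more room for such a value, so the shares are descriptions, and a value in between does not tell a gradual change from a step. It lay beyond the 18 to 21 h mean, on the side away from the later window, for 63 and 29 genes, and beyond the 25 to 28 h mean for 21 and 74. From 25 to 28 h to 29 to 31 h the mean went on in the same direction for 427 of the genes that rose and 286 of those that fell. These comparisons mix positions in the cycle and are descriptions.

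The chromosomes differed in their share of genes that rose. On the autosomes 4.45% to 5.63% of genes tested were higher at 25 to 28 h, and on chromosome X 1.7% (30 of 1761). The share lower was 3.92% on X and 2.0% to 3.42% on the autosomes. The median log2 difference was -0.175 on X and -0.023 to 0.038 on the autosomes. In the mutant culture it was -0.156 on X and -0.024 to 0.035 on the autosomes. Genes expressed in the germ line are known to be scarce on the X chromosome, and their part in this was not tested.

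The same genes were followed in the *ebax-1(tm2321)* culture, at 28 to 31 h against 21 to 24 h, hours set 3 h later than in wild type because the mutant is delayed. That comparison shares no library with the wild-type one. In it 821 of 12318 genes passed the test (6.67%), 560 higher and 261 lower. Of the wild-type genes that rose, 509 were tested in the mutant, 505 had the same direction and 363 passed the test in that direction (71.3% of the 509 and 68.2% of the 532 that rose in the mutant among 11932 genes tested in both). Of the wild-type genes that fell, 342 of 345 had the same direction and 143 passed (41.4% of the 345 and 54.8% of the 261). The number that passed in the opposite direction was 0 in both cases. Genes picked for a change in every pair would often agree in direction, and the share over all genes tested is not given here. The counts of same direction are therefore descriptions. Median differences in the mutant were 0.91 log2 for genes that rose in wild type and -0.54 log2 for genes that fell.

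**Figure D5:**
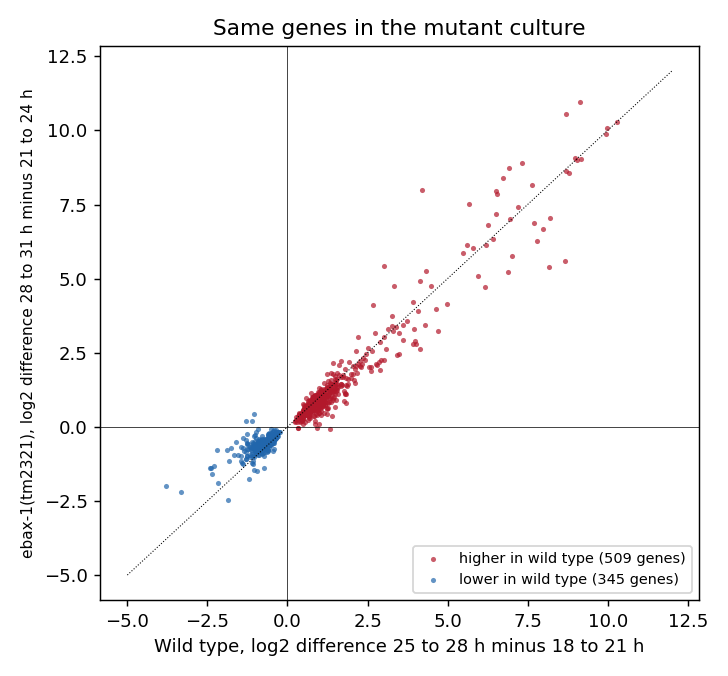
Fitted log2 differences of the genes that passed the test in wild type and were tested in the mutant, wild type (25 to 28 h minus 18 to 21 h) on the x axis and *ebax-1(tm2321)* (28 to 31 h minus 21 to 24 h) on the y axis. Of the 509 red genes 505 lie above 0 in the mutant and of the 345 blue genes 342 below it, and the dotted line marks equal differences.

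Single genes showed the same in the mutant. *lin-41* differed by -1.91 log2 (adjusted p = 2.94e-05), *daf-12* by -0.99 log2, *lin-11* by 2.22 log2, *pgl-3* by 1.95 log2 and *him-3* by 2.05 log2. The *msp* genes together had 2.3, 18.2, 37.0 and 120.9 CPM at 28, 29, 30 and 31 h in the mutant, and 2.9, 21.1, 54.5 and 149.8 CPM at 25, 26, 27 and 28 h in wild type. *irg-1* had a difference of 0.19 log2 in the mutant (adjusted p = 0.547). A test of the difference between the genotypes' changes found 0 of 13190 genes with edgeR at an adjusted p under 0.01 and 0 with limma. Without adjustment 575 genes (4.36%) had p under 0.05, and the lowest adjusted p was 0.484. With 4 pairs per genotype this does not show that the changes were alike. *ebax-1* itself had 33.8, 62.9, 71.4 and 106 CPM at 25 to 28 h and 33.7, 49.4, 93.2 and 136 CPM at 18 to 21 h in wild type (-0.12 log2, adjusted p = 0.549).

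The rest of the wild-type cycle, 29 to 31 h against 22 to 24 h, gave calls for 16.4% of 13345 genes, 1865 higher and 320 lower. Of the genes higher at 25 to 28 h, 518 of 536 had the same direction there, 308 passed the test and 1 passed in the opposite direction. Of the genes lower at 25 to 28 h, 318 of 336 had the same direction, 102 passed and 0 passed in the opposite one. As for the mutant, the counts of same direction have no share over all genes beside them and are descriptions. Of the spermatogenesis list 76 of 84 tested were higher at 29 to 31 h than at 22 to 24 h, and its summed level reached 4183 CPM at 31 h. A gene near 0 at 22 to 24 h could pass the filter on low counts only through 29 to 31 h, so the 76 are given as a count alone. A test of the difference between the changes in these parts of the cycle called 4 of 14016 genes, all with a smaller change in the window described here. *col-71* averaged 11.7 CPM at 25 to 28 h and 4.99 CPM at 18 to 21 h, but 2791 CPM at 29 to 31 h and 18.7 CPM at 22 to 24 h (difference of changes -6.01 log2, SE 0.470, adjusted p = 0.00303). The other 3 were *cnp-2*, F58E6.13 and *lys-7*, a lysozyme gene. Their number varied with single pairs, from 0 without the pair that begins at 18 h or at 23 h to 18 without the pair that begins at 21 h, and limma called 36 genes lower and 4 higher.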

How the data were processed

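Poly(A) mRNA of whole larvae was sequenced by the authors from strand-specific libraries. Reads were aligned to genome build ce10 with HISAT2 (named without a version in the processing notes of the submitters) through QuasR. They were counted per gene over WS220 exons on the stranded library's strand. The deposited count table holds raw read counts with no normalization. The deposited log2 values were made by the authors from these counts by scaling each library to the mean total and adding a pseudocount of 8, and recomputing them gave a largest difference of 0.0005. The log2 values were used in alternatives only. The table held 20392 genes, of which 19182 matched a gene name table and 19870 the WBcel235 annotation, the source of coordinates. Columns that matched no sample numbered 0, and 0 pairs of libraries were identical.

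Tests used edgeR 4.0.16 under R 4.3.3 (the quasi-likelihood test after TMM scaling, filterByExpr with a minimum count of 10, Benjamini-Hochberg adjustment over all genes tested, threshold 0.01). The window was the term tested and the 4 pairs of hours 7 h apart were the block. The pairing comes from the hours, not from the labels' replicates, and the libraries' correlations are given in the report. The mutant culture (28 to 31 h against 21 to 24 h, 4 pairs) and 7 wild-type pairs were fitted in the same way, with an interaction term for differences between genotypes or parts of the cycle. CPM are TMM-scaled. DESeq2 1.42.0 and limma 3.58.1 served as alternatives. The fitting code was checked on simulated counts. Intervals cover counting error only.

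The windows, gene lists and tests were chosen with earlier results of these data known, and the lists carry no test of their own. Named genes were, among those called with the same direction in 4 of 4 pairs and at least 10 CPM in the higher window, the 15 largest rises and 15 largest falls, then up to 4 called members per list (at least 5 CPM), all heterochronic and oscillator genes, and *ebax-1*. Genes with 0 to 3 counts in the earlier window are given against a floor of 3 counts or with a 95% exact interval. The *msp* genes and genes outside the rule were chosen after values were seen. Reads shared by near-identical genes (*msp*, *col*, *clec*, *ant-1*) may be split between copies.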

Additional observations from a re-analysis of the deposited data

Results flagged for a closer look

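In 125 named genes the 4 pair differences were searched for a pair far from the other 3, and 4 genes had one. Chance alone flags about 1 in 20 such sets. *clc-19*, a claudin-like gene, differed by -0.58 log2 in the pair at 28 h and 21 h and by -1.40 to -1.32 log2 in the other pairs. *col-145* differed by 3.26 log2 in that same pair and by 2.05 to 2.25 log2 in the others. In the pair at 26 h and 19 h, *lin-46* differed by -1.35 log2 (others -0.99 to -0.95 log2) and *spp-5*, a saposin-like gene, by 0.67 log2 (others 0.47 to 0.50 log2). In all 4 genes the direction was the same in 4 of 4 pairs.

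In 4 genes the change to 25 to 28 h differed from the change between 22 to 24 h and 29 to 31 h in the test of that difference (edgeR, adjusted over 14016 genes). The difference was -1.30 log2 for *lys-7* (adjusted p = 0.00654), -5.0 log2 for F58E6.13 (adjusted p = 0.00102), -6.98 log2 for *cnp-2* (adjusted p = 0.00654) and -6.01 log2 for *col-71* (adjusted p = 0.00303). *lys-7* averaged 25.1 CPM at 25 to 28 h and 17.9 CPM at 18 to 21 h, and 83.3 CPM at 29 to 31 h and 24.5 CPM at 22 to 24 h. F58E6.13 averaged 3.83 CPM at 25 to 28 h and 6.69 CPM at 18 to 21 h, and 220 CPM at 29 to 31 h and 11.1 CPM at 22 to 24 h. *cnp-2* averaged 1.70 CPM at 25 to 28 h and 2.91 CPM at 18 to 21 h, and 151 CPM at 29 to 31 h and 1.98 CPM at 22 to 24 h.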

How the results depend on the processing

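The 884 genes called kept their direction under DESeq2 size factors, total-count scaling, no filter, DESeq2, limma and no replicate block, and 881 of 883 did with pairs 8 h apart. The scalings moved the median of all genes by under 0.1 log2. Called again were 878 with DESeq2 size factors, 872 with total counts, 879 with DESeq2, 838 with limma, 524 with pairs 8 h apart, and 199 with no replicate block. *ifb-2* turned to -0.07 log2 with pairs 8 h apart.

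With no filter 1291 genes rose and 532 fell (18153 tested), and with no replicate block, where the paired design is dropped, 158 rose and 44 fell. Leaving out single pairs gave 86 to 450 higher and 9 to 337 lower. In the mutant 1070 rose with no filter, and 32 to 708 rose and 4 to 240 fell without single pairs. The difference between parts of the cycle gave 4 higher and 36 lower with limma, 5 and 18 with no filter, and 0 to 7 higher and 0 to 18 lower without single pairs.

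Members called with no replicate block were 3 neuron markers lower, 5 meiosis and 7 germline genes, 0 collagens and 2 spermatogenesis genes higher, 0 neuropeptides and 2 heterochronic genes lower. With no filter 32 collagens, 10 Argonautes and 52 spermatogenesis genes were higher. With pairs 8 h apart 10 germline genes, 5 collagens and 21 spermatogenesis genes were higher and 8 neuropeptides lower. Single pairs left out gave 1 to 17 neuron markers, 4 to 20 meiosis, 7 to 15 germline, 4 to 20 collagen, 3 to 14 spermatogenesis, 0 to 4 neuropeptide and 2 to 4 heterochronic genes. The cause of these shifts was not tested. Genes at about 1 CPM rest on 5 to 8 reads, which limits the precision of their differences.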

Other observations

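Gene groups of defence and metabolism moved little as groups, with single members apart. For the counts below, the shares over all genes tested were 4.46% higher and 2.85% lower. Of 76 C-type lectin genes tested 6 were higher and 3 lower, and 0 and 0 without the pair that begins at 20 h. *clec-79* and *clec-73*, with 0 and 2 counts over the 4 libraries of 18 to 21 h, are among the 6 and passed the filter on low counts only through 25 to 28 h. *clec-218* had 6.88, 13.7, 12.4 and 14.4 CPM at 25 to 28 h, against 0.989, 1.93, 4.84 and 6.38 CPM at 18 to 21 h (1.81 log2). Of 52 lysozyme, saposin and infection response genes 2 rose and 3 fell. *ilys-5*, an invertebrate-type lysozyme gene, averaged 483 CPM at 25 to 28 h and 288 CPM at 18 to 21 h (0.77 log2), and *spp-5* 249 CPM at 25 to 28 h and 172 CPM at 18 to 21 h (0.53 log2). Among 87 UDP-glucuronosyl and glutathione transferase genes 2 rose and 6 fell, and *ugt-47* was the largest rise (78.4 CPM at 25 to 28 h and 34.1 CPM at 18 to 21 h, 1.33 log2, windows overlapping). That call was lost with DESeq2 size factors, with scaling by total counts, with pairs 8 h apart and without the pair that begins at 19 or 20 h.

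In fatty acid metabolism 2 of 77 genes rose and 5 fell, and 1 and 0 without the pair that begins at 20 h. *acs-10*, 1 of the 2, had 3 counts over 18 to 21 h and passed the filter only through 25 to 28 h. *far-2*, which encodes a secreted fatty acid and retinol binding protein, had 2363, 2472, 2539 and 2551 CPM at 25 to 28 h, against 1042, 1292, 1492 and 1722 CPM at 18 to 21 h (0.86 log2, SE 0.096, adjusted p = 0.00204). *acox-1.2* and *acs-7*, enzymes of the peroxisomal route that makes ascaroside pheromones, were both lower. *acox-1.2* averaged 56.1 CPM at 25 to 28 h and 122 CPM at 18 to 21 h (-1.05 log2), and *acs-7* 27.6 CPM at 25 to 28 h and 53.8 CPM at 18 to 21 h (-0.94 log2). In the mutant the same 2 genes differed by -1.44 and -1.50 log2. *pha-4*, the FoxA factor of the pharynx, averaged 34.0 CPM at 25 to 28 h and 52.1 CPM at 18 to 21 h (-0.61 log2), and was the 1 gene of 26 in the pharynx list that passed the test, a call that was lost without any 1 of the 4 pairs. The number lower in that list was 3 with DESeq2, 3 with limma, 4 with pairs 8 h apart (median -0.84 log2, against -0.32 log2), 7 of 30 with no filter, and 0, 0, 0 and 6 without the pairs that begin at 18, 19, 20 and 21 h.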
